A study of Homo sapiens with 6 samples.

Results

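The cytosolic ribosomal protein genes were taken by symbol: genes named RPL, RPS or RPLP with a number and, where present, a suffix such as A, X or L, and RPSA. The rule kept pseudogenes and the RPS6 kinases out and found 84 members among 59608 genes, 52 of the large and 32 of the small ribosomal subunit. RNA-seq libraries were made from HepG2, an established human liver cancer line. In both groups endogenous VEZF1, a zinc finger transcription factor, had been removed with a guide RNA delivered by lentivirus. The VEZF1-WT group (3 libraries) then re-expressed the wild-type protein. The VEZF1-2A group (3 libraries) re-expressed a form in which serines reported to carry O-GlcNAc were replaced by alanine. O-GlcNAc is a sugar added to serine or threonine. The comparison asks which transcripts depend on those serines. The authors list further candidate sites and, in another hepatoma line, report a shorter half-life for this form. VEZF1 protein was not measured in these libraries. Neither an unedited line nor a knockout without re-expression was among the libraries, and the number of knockout clones was not given in the sources used here.

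Ribosomal proteins fold around ribosomal RNA to form the small subunit, which reads the mRNA, and the large subunit, which joins amino acids. Because nearly every ribosome needs the same set, their mRNAs are abundant in growing cells and are made in similar proportion. Many of them begin with a cytosine and a run of pyrimidines, the terminal oligopyrimidine or TOP motif, through which LARP1 and the kinase complex mTORC1 control how much of the mRNA is translated.

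This motif was common in the RefSeq promoters (GRCh38.p14), of which 67 members had an entry. The start base was C followed by 4 bases that were each C or T in 43 of the 67 members (64.2%) and in 1429 of all 35116 promoters (4.07%). Allowing the same motif within 10 bases of the start gave 55 members (82.1%) and 33.5% of all promoters. The windows below run from 10 bases before the start to the 20th base from it, with the unbroken pyrimidine run that holds the start in capitals and no capitals where the start base is not a pyrimidine. They show members with a TOP start that carry most of the description below, and the paralog pairs in which the start differs or is alike.
RPS6 (chr9:19380217-19380246, minus strand): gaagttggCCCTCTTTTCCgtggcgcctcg
RPLP0 (chr12:120201092-120201121, minus strand): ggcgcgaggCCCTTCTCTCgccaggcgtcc
RPLP1 (chr15:69452808-69452837, plus strand): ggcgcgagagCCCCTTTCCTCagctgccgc
RPL13A (chr19:49487598-49487627, plus strand): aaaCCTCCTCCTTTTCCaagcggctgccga
RPL37A (chr2:216498834-216498863, plus strand): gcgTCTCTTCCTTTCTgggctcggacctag
RPL39 (chrX:119791611-119791640, minus strand): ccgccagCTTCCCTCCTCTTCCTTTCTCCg
RPL22 (chr1:6199576-6199605, minus strand): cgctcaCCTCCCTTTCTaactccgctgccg
RPL22L1 (chr3:170870176-170870205, minus strand): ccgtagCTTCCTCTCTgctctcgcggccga
RPL26 (chr17:8383174-8383203, minus strand): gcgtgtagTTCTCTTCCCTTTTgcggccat
RPL26L1 (chr5:172958870-172958899, plus strand): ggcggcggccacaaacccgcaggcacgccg
RPS27 (chr1:153990752-153990781, plus strand): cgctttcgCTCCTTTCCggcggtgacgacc
RPS27L (chr15:63157458-63157487, minus strand): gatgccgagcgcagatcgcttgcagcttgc

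RPL22 and RPL22L1 both start within a pyrimidine run, whereas RPL26L1 and RPS27L do not and their parents RPL26 and RPS27 do. Counted from the start base, the run was 5 to 19 bases long among the 43 TOP-start members, with a median of 8, and was longest in RPL39. A run of 7 guanines (GGGGGGG, either strand, within 250 bases before to 50 after the start) was searched because VEZF1 is known to bind such runs. It was found in 2 members, RPL41 and RPS26 (2.99%), against 5.10% of all promoters. TATAAA on the gene's strand between 40 and 20 bases before the start occurred in 4 members (5.97%), against 2.30%. These are matches of letters, and the RefSeq start equalled a start in GENCODE release 29 for 35 of the 67 members.

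Cell type markers and library quality were checked first. Among markers of hepatocyte-like cells, ALB ran from 2112 to 2719 and AFP from 1419 to 2794 TPM (transcripts scaled to the same total in each library, per exon length). HNF4A (45.0 to 54.3 TPM) and TTR (28.9 to 46.4 TPM) were much lower. The leukocyte marker PTPRC reached at most 0.0318 TPM. These markers describe a hepatocyte-like state and do not identify the line. VEZF1 itself had 2807, 1623 and 2253 counts in the VEZF1-WT libraries, and the VEZF1-2A libraries had 1346, 1944 and 1288. In CPM, counts scaled for library size, this was 48.3 ± 9.95 and 44.5 ± 5.06 (SD, n = 3 each), a log2 difference of 0.12 with a standard error of 0.13, and the counts do not separate endogenous from re-expressed VEZF1. Libraries held from 28756765 to 57199396 counts, of which 924010 to 1916862 fell on the members. The labels number the libraries but do not say whether they came from separate cultures, so p-values measure the spread between these libraries, and in bulk RNA fewer cells with a transcript and less of it per cell cannot be told apart.

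Of the 84 members, 81 had enough counts to be tested. RPL10L, a paralog of RPL10 known from testis, had 0 counts in every library, which per library allows up to 3 counts. RPL3L, the muscle paralog of RPL3, had 9, 2 and 8 counts in VEZF1-WT, against 4, 10 and 8 in VEZF1-2A. RPL39L, a paralog of RPL39 also known from testis, had 0, 2 and 2 counts in VEZF1-WT, against 4, 2 and 4 in VEZF1-2A. These 3 paralogs were thus at or near the detection limit in both groups, and no difference was detectable at this depth.

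Levels of the other 81 members were compared per length, as TPM from the exon length in the deposited table. They spanned 475-fold with a median of 213 TPM, against 5.97 TPM over all 19111 genes tested, and 60 of the 81 exceeded 100 TPM. Large-subunit members had a median of 217 TPM and small-subunit members 166 TPM.

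**Figure D1:**
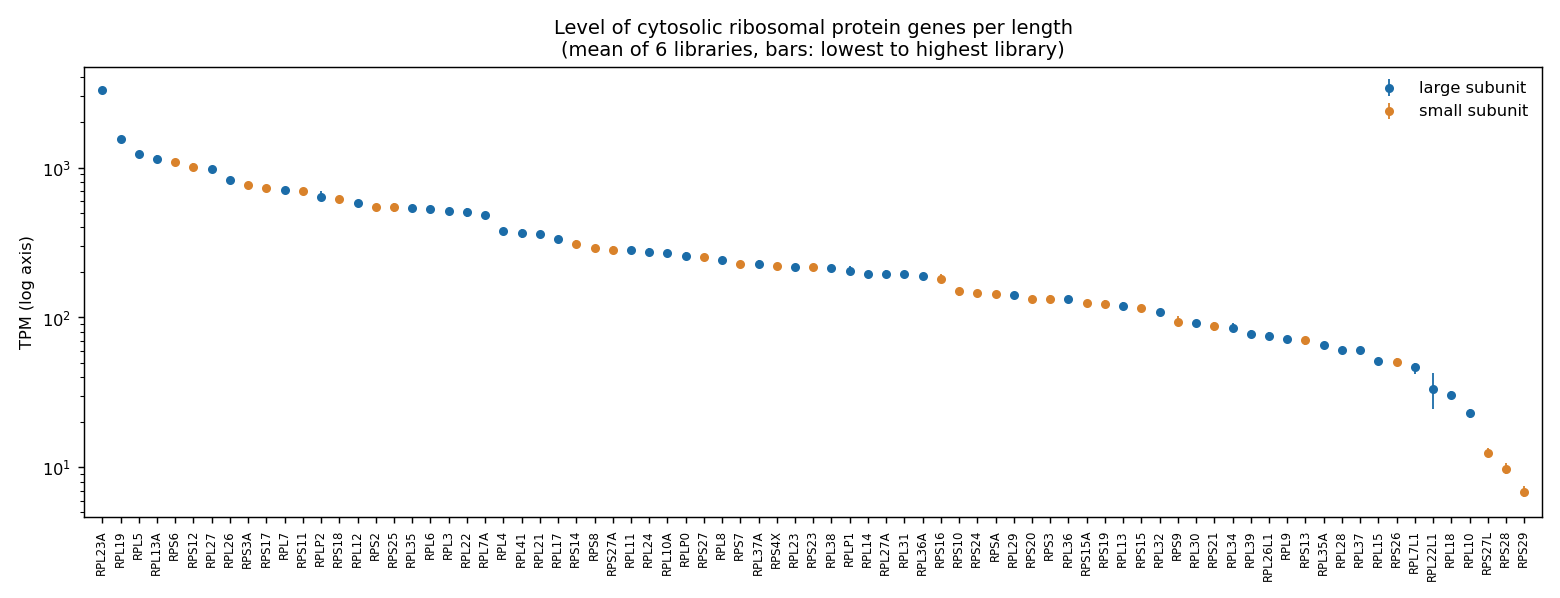
Mean TPM of 79 of the 81 tested members (log axis) in descending order, with bars from the lowest to the highest of 6 libraries and colours for the subunit. RPL23A stands at 3272 TPM and RPS29 at 6.89 TPM, and the bar of RPL22L1 is the widest on this axis.

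RPL23A, a large-subunit protein at the exit of the peptide tunnel, had the highest level, from 3150 to 3443 TPM over the 6 libraries. RPL19 followed at 1474 to 1588 TPM, below every library of RPL23A and above every library of RPL5. RPL5, which carries 5S ribosomal RNA into the large subunit, lay at 1173 to 1267 TPM. RPL13A (1104 to 1214 TPM) overlapped both RPL5 and RPS6 (1073 to 1133 TPM), so these neighbours in the order were not separated by their spread. RPS6, the small-subunit protein phosphorylated by S6 kinases, was the most abundant small-subunit member. At the other end RPS29 lay at 6.36 to 7.53 TPM, RPS28 at 9.02 to 10.6 TPM, RPS27L at 11.8 to 13.4 TPM, RPL10 at 21.2 to 24.4 TPM and RPL18 at 28.95 to 32.41 TPM. None of these 5 ranges overlapped another.

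The ends of this order partly followed the length used. With the length of the principal transcript of GENCODE release 29 instead, a choice made after the data were seen, the range was 301-fold and Spearman's rho with the first order was 0.907 over the 81 members. RPL23A stayed at rank 1 and RPL19 went from rank 2 to rank 4. RPS29, whose summed exons measure 9840 bases against 677 for the principal transcript, went from rank 81 to rank 73. RPS28, RPS27L and RPL10 stayed among the 5 lowest on both scales.

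Reads that fit a copy elsewhere are a further limit on levels, since ribosomal protein genes have many processed pseudogenes. Pseudogenes named after 78 of the members numbered 1237 in the deposited counts. They held 3.44 to 3.61 counts per 100 member counts in a library, and RPL23AP42 held the most (35880 counts over the 6 libraries). The share of a member's 50-base windows (principal transcript) that also occurred in other genes' transcripts of GENCODE release 29 had a median of 26.6% and was 95.6% in RPS10, which shares exons with the read-through gene RPS10-NUDT3, and 74.7% in RPL10. Across the 81 members this share and mean TPM had a Spearman's rho of 0.301, given as a description over genes of the same libraries. Exons of other genes overlapped 47 members, 34 of them on the same strand and often with a small nucleolar RNA, and the strand setting of the counting was not given in the sources used here.

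No member passed the test between VEZF1-WT and VEZF1-2A. With edgeR's quasi-likelihood test and Benjamini-Hochberg adjustment over 19111 genes, 0 of 81 members had an adjusted p under 0.05, as did 0% of all genes, and each member's adjusted p was 0.9996. At an unadjusted p under 0.05 there were also 0 members, beside 2.13% of all genes, and DESeq2 and limma voom likewise gave 0 members at that threshold. Only in RPL37A did the libraries of the groups not overlap, 1 of 81 members beside 7.36% of all genes.

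The estimates were small and their intervals narrow. The log2 difference of VEZF1-WT from VEZF1-2A ran from -0.10 in RPL37A to 0.06 in RPS16, with a median of -0.02, and all genes had a median of 0.000349. Its sign was negative in 58 and positive in 23 members, beside 9538 negative and 9573 positive of all genes tested. The median absolute log2 difference was 0.03 among members and 0.07 over all genes, and the median standard error was 0.06 and 0.13. Every one of the 81 intervals (95%) included 0 and lay within 0.5 of it on the log2 scale, and 79 lay within 0.25. The widest belonged to RPL22L1, from -0.38 to 0.30, and without it the bounds reached from -0.30 in RPS28 to 0.21. Large-subunit members (14 positive, 35 negative) and small-subunit members (9 positive, 23 negative) had the same median of -0.02.

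**Figure D2:**
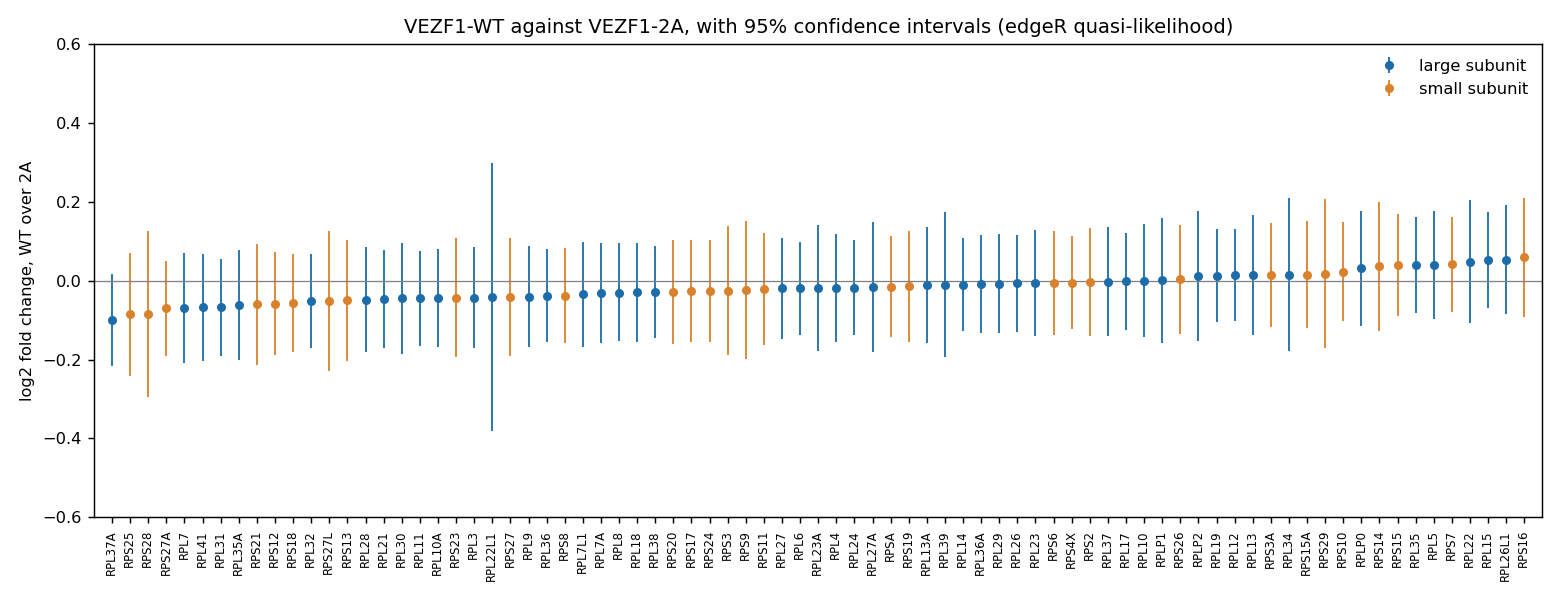
Log2 difference of VEZF1-WT from VEZF1-2A for 79 of the 81 tested members, in ascending order, with 95% confidence intervals from edgeR and colours for the subunit. Every interval crosses 0, from RPL37A at -0.10 to RPS16 at 0.06.

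RPL37A, a zinc-binding protein of the large subunit, had the smallest p among members. Its levels were 553.5, 517.8 and 540.4 CPM in VEZF1-WT and 579.5, 583.4 and 564.8 CPM in VEZF1-2A. Every VEZF1-WT library was below every VEZF1-2A library. The log2 difference was -0.10 ± 0.05 (SE), with an interval from -0.22 to 0.02 and an unadjusted edgeR p of 0.0838 (adjusted p = 0.9996). Only 3.70% of its 50-base windows occurred elsewhere and no exon of another gene overlapped it.

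Among the next members by p of those lower in VEZF1-WT, the 3 named here had groups that overlapped. RPS27A, made as a fusion with ubiquitin, had 346.9, 326.9 and 350 CPM in VEZF1-WT and 349.8, 366.8 and 358.6 CPM in VEZF1-2A (log2 difference -0.07, interval -0.19 to 0.05). RPS25 gave 308.9, 289.1 and 334.8 CPM against 318.9, 316.3 and 354.9 CPM (-0.09, -0.24 to 0.07). RPL31 gave 396.4, 378 and 418.7 CPM against 414, 419.1 and 417.1 CPM (-0.07, -0.19 to 0.06). In all 3 it was VEZF1-WT replicate 3 that reached into the range of VEZF1-2A.

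Among members higher in VEZF1-WT, those with the smallest p also had groups that overlapped. RPL15 had 142.4, 148.3 and 154.2 CPM in VEZF1-WT and 142.6, 141.2 and 145.4 CPM in VEZF1-2A (log2 difference 0.05, interval -0.07 to 0.17). RPS16 had 197.9, 177.1 and 210.8 CPM against 189.3, 183.6 and 189.7 CPM (0.06, -0.09 to 0.21). The VEZF1-WT libraries of RPS16 enclosed all those of VEZF1-2A. The groups of RPL26L1 (0.05, -0.08 to 0.19) and RPS7 (0.04, -0.08 to 0.16) overlapped as well.

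Members with known special roles lay in the same narrow band. The stalk proteins RPLP0, RPLP1 and RPLP2, which recruit translation factors, had log2 differences of 0.03, 0.00 and 0.01. RPLP2 showed VEZF1-WT replicate 3 apart from the rest, with 403.9, 383.8 and 467.3 CPM in VEZF1-WT and 403.2, 410.4 and 431.6 CPM in VEZF1-2A. RPL5 and RPL11, which bind MDM2 when ribosome assembly is disturbed, were at 0.04 (interval -0.10 to 0.18) and -0.05 (-0.17 to 0.08). RPS19, the gene most often mutated in Diamond-Blackfan anaemia, was at -0.01 (-0.16 to 0.13). RPS14, lost in the 5q deletion of myelodysplastic syndrome, was at 0.04 (-0.13 to 0.20). RPS6 was at -0.01 (-0.14 to 0.13) and RPL13A, known also for a role in translational silencing, at -0.01 (-0.16 to 0.14). RPSA, first described as a laminin receptor precursor, was at -0.02, RPS3, at the entry of the mRNA channel, at -0.03, RPL3, near the peptidyl transferase centre, at -0.04 and RPS4X at -0.01. RPL41, the shortest of these proteins and 1 of the 2 members with a guanine run, was at -0.07 (-0.20 to 0.07). RPS26, the other, was at 0.00 (-0.14 to 0.14).

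By the start of the mRNA, the 43 members with a TOP start had a median level of 216 TPM and a median log2 difference of -0.03 (10 positive). The 23 tested members with another RefSeq start had a median of 116 TPM and -0.01 (10 positive). The other starts include RPS29, RPS28, RPS27L and RPL10, which are among the lowest in TPM, and the paralogs RPL26L1 and RPL7L1. Levels in TPM also depend on the exon length used, as given above for RPS29. The difference between the medians was not tested. The split rests on the exact RefSeq start base and does not part TOP from other mRNAs. RPL19 and RPS7, placed among the other starts, also start within a pyrimidine run. Within 10 bases of the start, 55 of the 67 members with a promoter entry held the motif.

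Several paralogs stood far below their parents in TPM in every library. RPL26L1 had 74.9 TPM against 824 for RPL26, RPL7L1 46.4 against 703 for RPL7, and RPS27L 12.5 against 253 for RPS27. In raw counts there were 4.03 to 4.49 RPL26L1 per 100 RPL26, 17.2 to 21.5 RPL7L1 per 100 RPL7 and 41.4 to 43.6 RPS27L per 100 RPS27. The summed exons behind TPM measure 8825 bases in RPS27L and 1028 in RPS27, so that gap is much wider in TPM than in counts. Of the 50-base windows of RPL26L1, 48.6% also occurred in other genes' transcripts. RPS27L is known as a p53 target, and the log2 differences of RPS27 and RPS27L were -0.04 and -0.05. RPL39, the parent of RPL39L, lay at 77.5 TPM, and RPL3, the parent of RPL3L, at 514 TPM.

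RPL22L1 was the member that varied most. RPL22, its parent, is known to repress it, so the pair is given in full. RPL22L1 had 29.6, 25.5 and 24.6 CPM in VEZF1-WT and 26.8, 34.4 and 20.6 CPM in VEZF1-2A. Both the highest and the lowest library were VEZF1-2A, and the log2 difference between groups was -0.04 (-0.38 to 0.30). RPL22 had 927.6, 910.3 and 1020 CPM in VEZF1-WT and 908.3, 858 and 998.8 CPM in VEZF1-2A, a log2 difference of 0.05 (-0.11 to 0.20). Per 100 RPL22 counts there were 3.186, 2.797 and 2.411 RPL22L1 counts in VEZF1-WT, against 2.947, 4.004 and 2.066 in VEZF1-2A. VEZF1-2A replicate 2 had the most RPL22L1 and the least RPL22. The library with the least RPL22L1, VEZF1-2A replicate 3, had the second highest RPL22, after VEZF1-WT replicate 3. In VEZF1-WT replicate 1 both were in the upper part, with the second highest RPL22L1 and the third highest RPL22. Most members were also high in both libraries numbered 3, as given below. A relation between RPL22 and RPL22L1 was not tested.

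Spread between libraries was otherwise low. The coefficient of variation of CPM over the 6 libraries had a median of 4.24% among members and 10.6% over all genes tested. It ran from 2.10% in RPL18 to 17.4% in RPL22L1, with RPL34 next at 8.80%. RPL34, RPS10 and RPS26 were named after their values were seen. Counting error alone would give members a median of 0.914%, from 0.292% to 5.53%. The biological coefficient of variation in edgeR was 6.43% at the median of the members and 10.3% over all genes. In the related lists described below this median ran from 6.06% (other ribosome parts) to 7.81% (snoRNA hosts). It was 6.53% in ribosome assembly factors and 6.84% in mitochondrial ribosomal proteins, so the low spread was not particular to the members. Levels were not matched either, with medians of 213 TPM in members and 5.97 TPM over all genes tested.

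Most members were high or low in the same libraries, and these did not follow the groups. Relative to each gene's mean over the 6 libraries, the median member lay at -0.04, -0.06 and 0.07 on the log2 scale in VEZF1-WT replicates 1, 2 and 3. The same medians were -0.01, 0.00 and 0.04 in VEZF1-2A. VEZF1-WT replicate 3 was above a member's own mean in 76 of 81 members and VEZF1-2A replicate 3 in 62, while VEZF1-WT replicates 1 and 2 were above it in 9 and 8. The highest library was VEZF1-WT replicate 3 in 48 members, and the lowest was VEZF1-WT replicate 2 in 37 and VEZF1-WT replicate 1 in 25. Both subunits had this order. The median of all genes tested was within 0.01 of 0 in every library. The scaling of the libraries aims at such a median, so it is no independent comparison for the members.

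**Figure D3:**
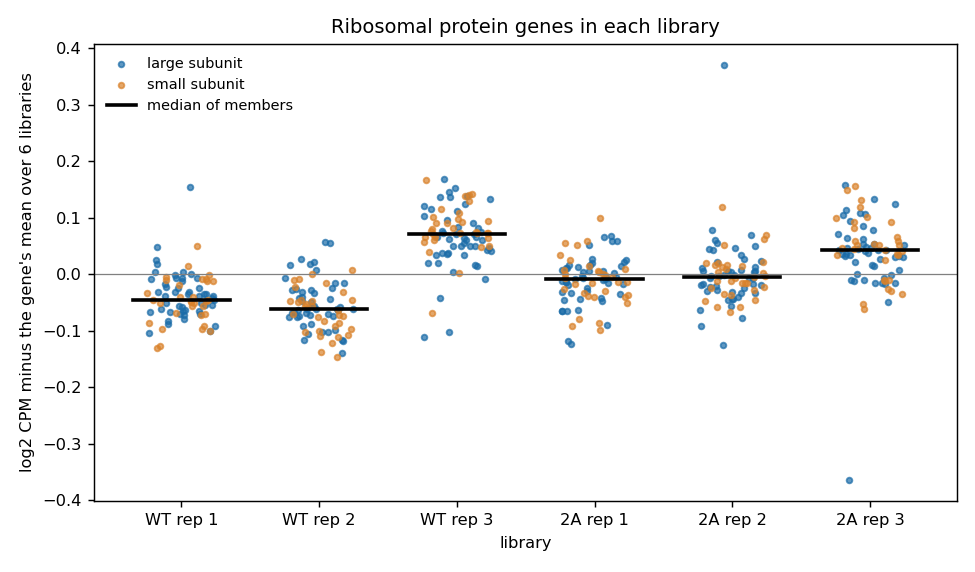
Log2 CPM of each of the 81 members minus the gene's own mean over 6 libraries, by library, with colours for the subunit and a line at the median of members. The medians are lowest in VEZF1-WT replicate 2 (-0.06) and highest in VEZF1-WT replicate 3 (0.07).

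The same order shows in the summed counts. Members took 3.13%, 3.12% and 3.35% of the counts in VEZF1-WT, against 3.21%, 3.22% and 3.27% in VEZF1-2A. The means were 3.20% ± 0.13 and 3.24% ± 0.029 (SD, n = 3 each), so VEZF1-WT spread on both sides of VEZF1-2A. Large-subunit counts were 2.29 to 2.32 times the small-subunit counts in every library. Transcripts of the mitochondrial genome took 7.94% to 8.28% of the counts in VEZF1-WT, against 8.29% to 8.55% in VEZF1-2A.

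Leaving out VEZF1-WT replicate 3 moved the comparison most. Without it 44 of 81 members (54.3%) had groups that did not overlap, all lower in VEZF1-WT, beside 17.3% of all genes, and 8 members were positive. The median log2 difference was then -0.07, and 0 members had an unadjusted p under 0.05 in edgeR. Because most members were high or low in the same libraries, these 44 are not separate results. Leaving out VEZF1-WT replicate 1 or 2 instead gave 39 or 42 positive members and medians of 0.00. VEZF1-WT replicate 3 was also the deepest library, at 57199396 counts, whereas VEZF1-2A replicate 3, the next highest in members, had 33966492, and the part of depth was not tested.

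Genes that work with the ribosome were read from the same fit. The 4 other ribosome parts, genes for ribosomal proteins outside the symbol rule and RACK1, had a median log2 difference of 0.02 and none at an unadjusted p under 0.05. RPL36AL, a paralog of RPL36A at 1249 TPM, was at 0.07, and RACK1, a scaffold on the small subunit, at -0.04. Of 16 further mRNAs known for a TOP motif, mostly translation factors, 7 were positive and 9 negative, with a median of 0.00 and 0 at an unadjusted p under 0.05. Only EIF3H, a subunit of initiation factor eIF3, had groups that did not overlap (log2 difference -0.10), 1 of 16 beside 7.36% of all genes. The medians of these 16 over the libraries, -0.04, -0.04 and 0.08 in VEZF1-WT, against -0.02, -0.04 and 0.07 in VEZF1-2A, also put both libraries numbered 3 highest. The 10 tested transcripts that host small nucleolar RNAs had 6 positive and 4 negative values and 0 at an unadjusted p under 0.05. Of these 10, only SNHG12 (-0.15) had groups that did not overlap, beside 7.36% of all genes.

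Of 42 ribosome assembly factors, which build the ribosome, 38 had a positive log2 difference, beside 9573 of all 19111 genes tested. Their median log2 difference was 0.04. Of the 42, 0 passed the adjusted threshold and 1 had an unadjusted p under 0.05, beside 2.13% of all genes. That gene was LYAR, a nucleolar protein, at 484 ± 10.7 CPM in VEZF1-WT and 428 ± 29.2 CPM in VEZF1-2A (SD, n = 3 each), a log2 difference of 0.18 with an unadjusted edgeR p of 0.0157 and an adjusted p of 0.9996. LYAR was at 489.1, 471.2 and 490.3 CPM in VEZF1-WT and 438.1, 394.7 and 450.2 CPM in VEZF1-2A. RIOK1, a kinase of small-subunit maturation (0.12), and NOP2, a ribosomal RNA methyltransferase (0.09), were among the 5 of 42 assembly factors whose groups did not overlap, beside 7.36% of all genes. The library medians of the 42 were 0.07, 0.03 and -0.02 in VEZF1-WT, against 0.01, -0.07 and -0.01 in VEZF1-2A, so VEZF1-WT replicate 3 lay within the range of VEZF1-2A. VEZF1-WT replicate 1 was above a gene's own mean in 40 of the 42, and VEZF1-2A replicate 2 in 6. These genes thus moved together across libraries, and the 38 positive signs are not separate results. The difference between the lists was not tested.

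RNA polymerase I subunits and factors, which make ribosomal RNA, had 7 positive and 3 negative values of 10 and a median of 0.03. The 14 genes of mTORC1, MYC and TOP control had 9 positive and 5 negative values and a median of 0.02. Neither list had a gene at an unadjusted p under 0.05. Of the 14 genes of mTORC1, MYC and TOP control, 2 had groups that did not overlap, beside 7.36% of all genes. RHEB, which activates mTORC1, was lower in every VEZF1-WT library (-0.11). RPS6KB2, a kinase of RPS6, was higher in every VEZF1-WT library (0.10). No difference between the groups is read from these 2 genes. LARP1 was at 0.00.

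Mitochondrial ribosomal proteins, which translate the mitochondrial genome, were the nearest list in kind. Of 78 tested, 54 were positive, beside 9573 of all 19111 genes tested. Their median log2 difference was 0.04, and 0 passed the adjusted threshold. MRPS18C (0.15, unadjusted p = 0.0168) and MRPS34 (0.14, unadjusted p = 0.0225) were the 2 at an unadjusted p under 0.05 in edgeR, beside 2.13% of all genes, each with an adjusted p of 0.9996. MRPS34 was at 152.5, 152.6 and 154.5 CPM in VEZF1-WT and 139.6, 135.3 and 142.4 CPM in VEZF1-2A. Groups did not overlap in 8 of the 78, of which 7 were higher in VEZF1-WT, beside 7.36% of all genes. The counts by unadjusted p and by overlap were close to the shares of all genes, and nothing particular to the list is read from them.

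**Figure D4:**
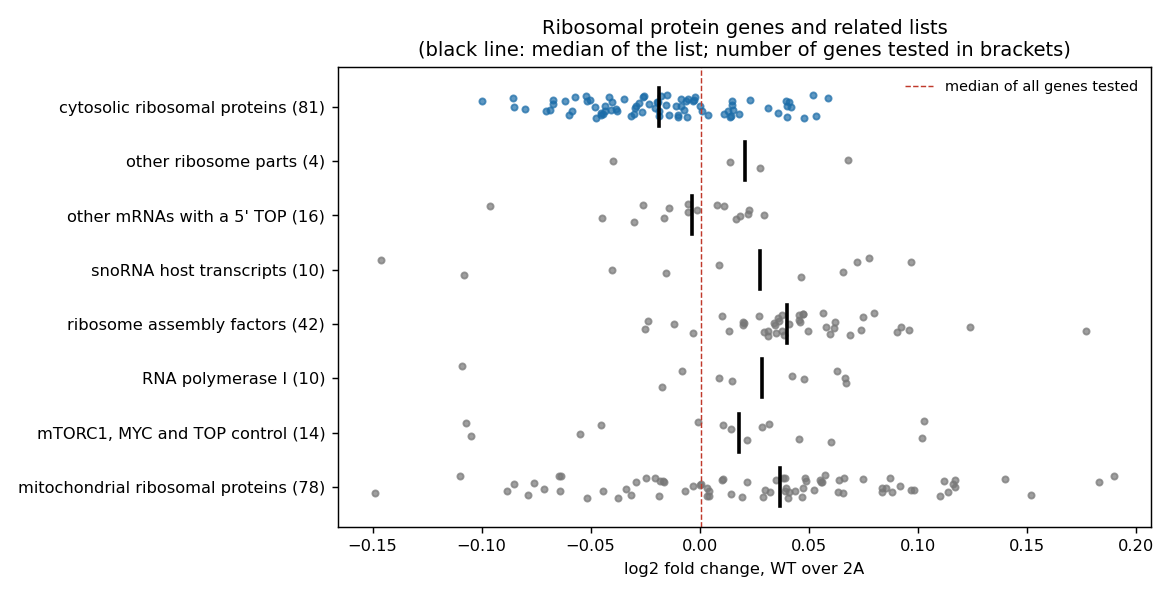
Log2 difference of VEZF1-WT from VEZF1-2A for each tested gene of the members and of 7 related lists, with a black line at each list's median and a dashed line at the median of all genes tested. The median is -0.02 for cytosolic and 0.04 for mitochondrial ribosomal proteins, and no gene shown passed the adjusted threshold.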

How the data were processed

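RNA was made into libraries with a SMARTER mRNA-Seq kit, and the authors deposited 1 table of raw read counts per gene, with positions and exon lengths. The build was GRCh38 per the labels' processing notes; the aligner, the counting program and the annotation release were not given in the sources used here. Positions of 30 of the 84 members equalled those of GENCODE release 29. Broken lines (5, of ANK2) were left out. Of the counts between 11 and 100, 65.7% to 67.5% per library were even, so counting intervals may be too narrow and tests used the spread between libraries.

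Groups and replicate numbers came from the library titles. Counts were fitted in R 4.3.3 with edgeR 4.0.16: filterByExpr (minimum count 10, minimum total 15), TMM scaling (0.977 to 1.01), prior count 0.125, glmQLFit and glmQLFTest on group alone, two-sided, with the Benjamini-Hochberg adjustment taken over all 19111 tested genes. Intervals are 95%. CPM used the scaled library sizes, and TPM the raw counts and the table's exon lengths. DESeq2 1.42.0 and limma 3.58.1 (voom) were alternatives, with other scalings, no filter, a replicate block and each library left out. Scripts were tested on simulated data; figures were drawn in Python 3.11.15 with matplotlib 3.10.9.

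Members named are textbook members and paralogs, the 5 highest and 5 lowest in TPM, the 5 with the smallest p in each direction, and those not tested. Up to 3 genes per related list were named, by p. Members and lists were chosen with earlier results of these data known. A few genes that these rules would name are not reported here by name; they remain in the counts and medians.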

Additional observations from a re-analysis of the deposited data

How the results depend on the processing

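No member passed an adjusted p of 0.05 under any of the alternatives run. Since no member came near that threshold, this says little of how stable single values are: when single libraries were left out, the log2 difference of RPL22L1 ran from -0.21 to 0.17, and that of RPLP0 went from 0.03 to -0.03 without VEZF1-WT replicate 3. Members whose groups did not overlap numbered 1 in the reported setting (7.36% of all genes), 2 with size factors as in DESeq2 (7.38%) and 2 with mitochondrial genes left out (7.33%). They numbered from 2 to 44 when single libraries were left out, beside 13.4% to 21.4% of all genes; the 44 came without VEZF1-WT replicate 3 (17.3% of all genes) and the other 5 counts were from 2 to 8. DESeq2 and limma voom gave no such count. Without the filter on low counts 83 members were tested and 35 of them were positive, but the median of all genes also moved, from 0.000349 to 0.0163 on the log2 scale. With the replicate number as a block, members at an unadjusted p under 0.05 numbered 1 in place of 0: RPL37A, at a log2 difference of -0.10 with an unadjusted p = 0.0444 in edgeR. Across its alternatives RPL37A ran from -0.13 to -0.07 on the log2 scale and its p from 0.0444 to 0.263. The block also took all genes at an unadjusted p under 0.05 from 408 to 825 and those at an adjusted p under 0.05 from 0 to 6. Deviations of same-numbered libraries correlated at 0.082, 0.151 and 0.382, and VEZF1-WT replicate 2 correlated best with VEZF1-2A replicate 1 (0.181), so the libraries share a number and the labels give no pairing. The part of depth in the precision was not tested.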
